A study of Mus musculus with 10 samples.

Results

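The 10 cadherin genes Cdh2, Cdh3, Cdh4, Cdh6, Cdh8, Cdh10, Cdh11, Cdh13, Cdh15 and Cdh16 were followed in metanephric mesenchyme without and with the signalling ligand Wnt9b. Every probe set that the platform annotation assigns to exactly 1 of these symbols was taken, which gave 24 probe sets for the 10 genes out of 45037 probe sets that were not array controls. The mesenchyme came from mouse kidneys at E11.5, with 5 arrays of Wnt9b-/- tissue and 5 of Wnt9b+/+ littermate tissue, each from its own pool of 25 to 30 mesenchymes. The sample labels give the controls as Wnt9b+/+, while the design text of the series calls them heterozygous, and the sample labels were followed. The mutants lack Wnt9b in the whole embryo, the ureteric bud had been removed enzymatically, and the strain background is not known here.

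Cadherins are calcium-dependent adhesion proteins whose extracellular domains bind those of neighbouring cells and whose cytoplasmic tails, in the classical members, are held to the actin cytoskeleton by catenins. In the developing kidney, mesenchymal cells that respond to Wnt signals from the ureteric bud gather into aggregates and convert to epithelium, and the set of cadherins on their surface changes as they do so. Cdh2, Cdh3, Cdh4 and Cdh15 (N-, P-, R- and M-cadherin) are classed as type I, and Cdh6, Cdh8, Cdh10 and Cdh11 as type II. The name classical cadherin does not cover Cdh13, which is held in the membrane by a lipid anchor and has no cytoplasmic tail, or Cdh16, the kidney-specific cadherin, whose tail is short and does not bind catenins. Signals are given as deposited, on a linear scale, and differences as mutant minus wild type after taking log2(signal + 1), the log2 signal. A probe set is called dim where its mean log2 signal lay under the 40th percentile of all probe sets.

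Cdh4, whose product R-cadherin is known from the mesenchymal aggregates and early tubules of the kidney, was the member that differed most clearly between the genotypes. On its probe set 1449422_at the signals were 39.9, 57.4, 47.8, 37.2 and 44.0 in the mutant arrays, against 149, 140, 132, 120 and 115 in the wild-type arrays. The highest mutant array lay below the lowest wild-type array, so the groups did not overlap. The mean log2 signal was 5.52 ± 0.24 (SD, n = 5) in the mutant and 7.04 ± 0.15 (SD, n = 5) in wild type, a difference of -1.53 (SE 0.15, 95% interval -1.87 to -1.19, limma adjusted p = 0.0368 over all probe sets). The signal was thus 2.88-fold lower in the mutant, with an interval of 2.27-fold to 3.65-fold. This was the second smallest p of all probe sets, and 2 of 45037 (0.00444%) were called at an adjusted p under 0.05, both lower in the mutant. The other one belonged to Cd109, a membrane-anchored cell surface protein, whose dim signals were 5.10 to 7.87 in the mutant and 25.6 to 53.7 in wild type.

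The size of the Cdh4 difference was stable, and its place under the threshold was not. Leaving out each array in turn gave differences of -1.61 to -1.46, yet the adjusted p then lay between 0.0587 and 0.236, above 0.05 in all 10 cases. Blocking on arrays whose titles share wording left the difference at -1.53 and raised the adjusted p to 0.289. The 18S ribosomal RNA control split the arrays into 4 with a high and 6 with a low signal, each set with both genotypes in equal number. Within the 4 arrays the difference was -1.63, and within the other 6 it was -1.46.

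The 3 probe sets of Cdh4 gave different estimates of the genotype difference. On 1456397_at the signals were 61.1, 123, 85.1, 81.4 and 94.7 in the mutant arrays, against 217, 166, 111, 104 and 150 in the wild-type arrays. Mutant replicate 2 lay above wild-type replicates 3 and 4, so the groups overlapped. The mean log2 signal was 6.46 ± 0.36 (SD, n = 5) in the mutant and 7.18 ± 0.43 (SD, n = 5) in wild type, a difference of -0.73 (95% interval -1.28 to -0.17) that was not called over all probe sets (limma unadjusted p = 0.0151, adjusted p = 1). On 1449637_at every array lay between 1.32 and 3.94, at the 1.46th percentile of mean log2 signal over all probe sets, with a difference of 0.46 (95% interval -0.0032 to 0.92, limma adjusted p = 1).

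**Figure D1:**
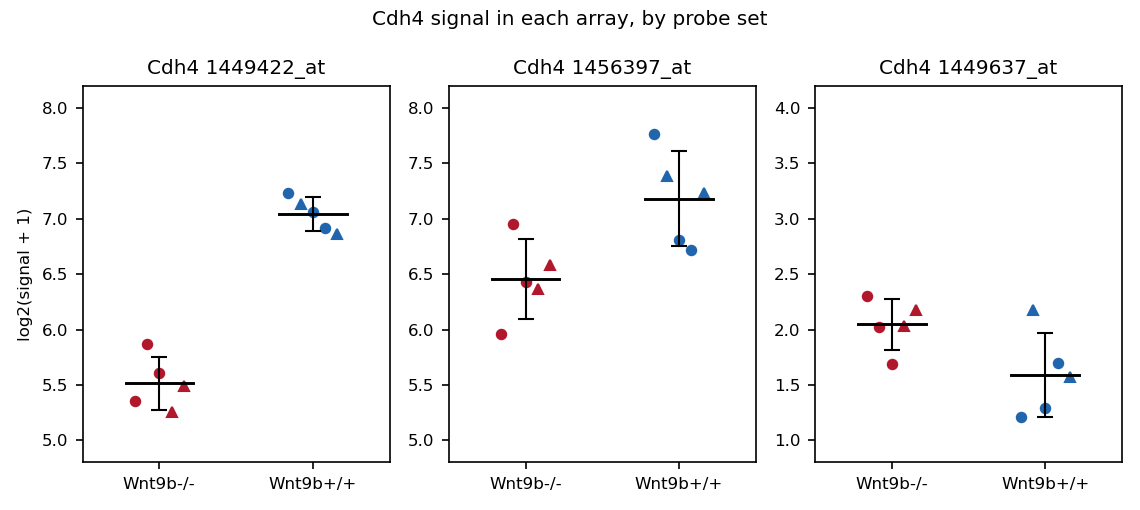
Log2(signal + 1) of the 3 Cdh4 probe sets in each array, 5 Wnt9b-/- (red) and 5 Wnt9b+/+ (blue), with the mean and SD in black and triangles for the arrays with a high 18S control signal. The groups are apart on 1449422_at and overlap on the others, and 1449637_at is drawn on a lower range of the same length.

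Whether the genotype difference itself differed between Cdh4 probe sets was tested on the within-array difference of their log2 signals. Between 1449422_at and 1456397_at that quantity was -0.94 ± 0.22 (SD, n = 5) in the mutant and -0.14 ± 0.35 (SD, n = 5) in wild type, so the first probe set fell by 0.80 more on the log2 scale (two-sided exact permutation p = 0.00794). This is the smallest p that 252 arrangements of the arrays allow. The other 2 pairs of Cdh4 probe sets each hold the dim 1449637_at and do not bear on a difference between the brighter probe sets, though the adjustment counts them. Over all 22 pairs of probe sets of the same member the exact permutation value was 0.0582 after adjustment, so none of the 22 passed there. Across the 10 arrays the 2 brighter Cdh4 probe sets correlated at r = 0.81, and at r = 0.70 after the genotype means were removed. The annotation pairs 1449422_at with a reference mRNA of Cdh4, 1456397_at with an expressed sequence tag and 1449637_at with no accession. Where the probes lie in the Cdh4 transcript, and which isoforms they read, is not stated in these sources. A choice of the brightest probe set for each gene takes 1456397_at, under which Cdh4 was not called (limma adjusted p = 0.749).

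Because whole mesenchymes were measured, fewer cells that contain a transcript and less of it per cell cannot be told apart. Of the 9 measured markers of cap mesenchyme, the progenitor tissue of the nephron, 7 were lower in the mutant, none called and 5 with an unadjusted p under 0.05, where 45.1% of all 18193 genes were lower and 4.62% had such a p in either direction. Their summed signal was 4628 to 8028 in the mutant arrays and 8258 to 10023 in the wild-type arrays. Of the 8 markers of pretubular aggregates and renal vesicles, the first epithelial stages, 6 were lower, none called and 3 with an unadjusted p under 0.05, and their sum was 2184 to 2742 in the mutant and 2798 to 3227 in wild type. Much of that sum came from the brightest of the 8, Ccnd1, whose difference was -0.12. Its signals were 1165 to 1771 in the mutant and 1349 to 1683 in wild type. None of these markers was at 0 in all arrays, and their part in the Cdh4 difference was not tested.

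The genes whose pattern over the 10 arrays was closest to that of Cdh4 depended on its probe set. Candidates were 19313 probe sets with 1 symbol, other than Cdh4, whose mean log2 signal lay above the median of all probe sets. The 5 nearest to 1456397_at by Pearson's r were Dnajc16 (r = 0.98), Hells (r = 0.93), Rasef (r = 0.92), Pax8 (r = 0.90) and Zfp423 (r = 0.89). The 5 nearest to 1449422_at, a search added after the values were seen, were Btbd11 (r = 0.98), Rasef, Cxcr4 and Uncx (r = 0.94 each) and Itga8 (r = 0.92). Rasef was the gene on both lists, with a mean log2 signal of 6.10 ± 0.48 (SD, n = 5) in the mutant and 7.56 ± 0.37 (SD, n = 5) in wild type. These correlations include the genotype difference. With the genotype means removed, Btbd11 correlated with 1449422_at at 0.76 and Dnajc16 with 1456397_at at 0.96. The genes were picked for their high r among 19313 candidates on these same 10 arrays. All these correlations are raised by that choice and were not tested.

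Cdh2 and Cdh11 are the cadherins best known from mesenchyme, Cdh2 also from the first tubules. Cdh2 had signals of 2258, 2491, 2316, 3301 and 2691 in the mutant arrays on 1418815_at, against 2558, 2511, 2987, 2059 and 2778 in the wild-type arrays. Cdh11 had 3801, 4807, 4113, 5167 and 4736 in the mutant arrays on 1450757_at, against 4388, 3944, 5336, 3921 and 4844 in the wild-type arrays. For both genes the groups overlapped. The differences were 0.015 (95% interval -0.34 to 0.37) for Cdh2 and 0.014 (95% interval -0.31 to 0.34) for Cdh11. Their second probe sets gave -0.061 (95% interval -0.39 to 0.27) and -0.084 (95% interval -0.50 to 0.33). These intervals leave out a change the size of that on Cdh4 1449422_at in either direction. The brighter probe sets of the 2 genes correlated over the arrays at r = 0.87, and at the same value after the genotype means were removed. This was the highest r between the brightest probe sets of any 2 members, and it was not tested. The 2 probe sets of Cdh2 correlated with each other at r = 0.37, and those of Cdh11 at r = 0.80. Mutant replicate 4 and wild-type replicate 3 were the highest arrays of their groups on both brighter probe sets. All 4 of these probe sets lay above the 87th percentile of signal over all probe sets, with 1450757_at at the 98.7th, which describes these probe sets and is no measure of transcript level.

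Cdh6, a type II cadherin of the renal vesicle and later of the proximal tubule, is known to take part in the mesenchyme's conversion to epithelium. Its signals on 1442257_at were 284, 187, 178, 197 and 203 in the mutant arrays, against 184, 194, 170, 252 and 166 in the wild-type arrays. Mutant replicate 1 stood above every other array, and the rest of the groups overlapped. The difference was 0.11 (95% interval -0.28 to 0.51) there and 0.0045 (95% interval -0.49 to 0.50) on 1450288_at. Both intervals lay above that of Cdh4 1449422_at.

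Cdh10, a type II cadherin known mainly from the nervous system, was the member with the largest positive difference on a probe set that was not dim. On 1425092_at its signals were 165, 107, 138, 167 and 113 in the mutant arrays, against 121, 69.4, 79.2, 59.2 and 64.5 in the wild-type arrays. Wild-type replicate 1 lay above 2 of the mutant arrays, and the other wild-type arrays lay below all of them. The difference was 0.83 (SE 0.22, 95% interval 0.33 to 1.33), and it was not called over all probe sets (limma unadjusted p = 0.00422, adjusted p = 0.879). The second probe set of Cdh10 that was not dim, 1460538_at, gave 0.30 (95% interval -0.22 to 0.82), with signals of 69.2 to 105 in the mutant and 44.2 to 98.4 in wild type. The dim ones gave -0.090 and 0.90, and none of the 6 pairs of Cdh10 probe sets passed after adjustment over the 22 pairs. Markers of neurons and neural crest were measured for 5 of 7 listed genes, 3 of them higher, none called and 2 with an unadjusted p under 0.05, against 4.62% of all genes. Their summed signal was 590 to 920 in the mutant and 463 to 670 in wild type, and their part in the Cdh10 values was not tested.

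**Figure D2:**
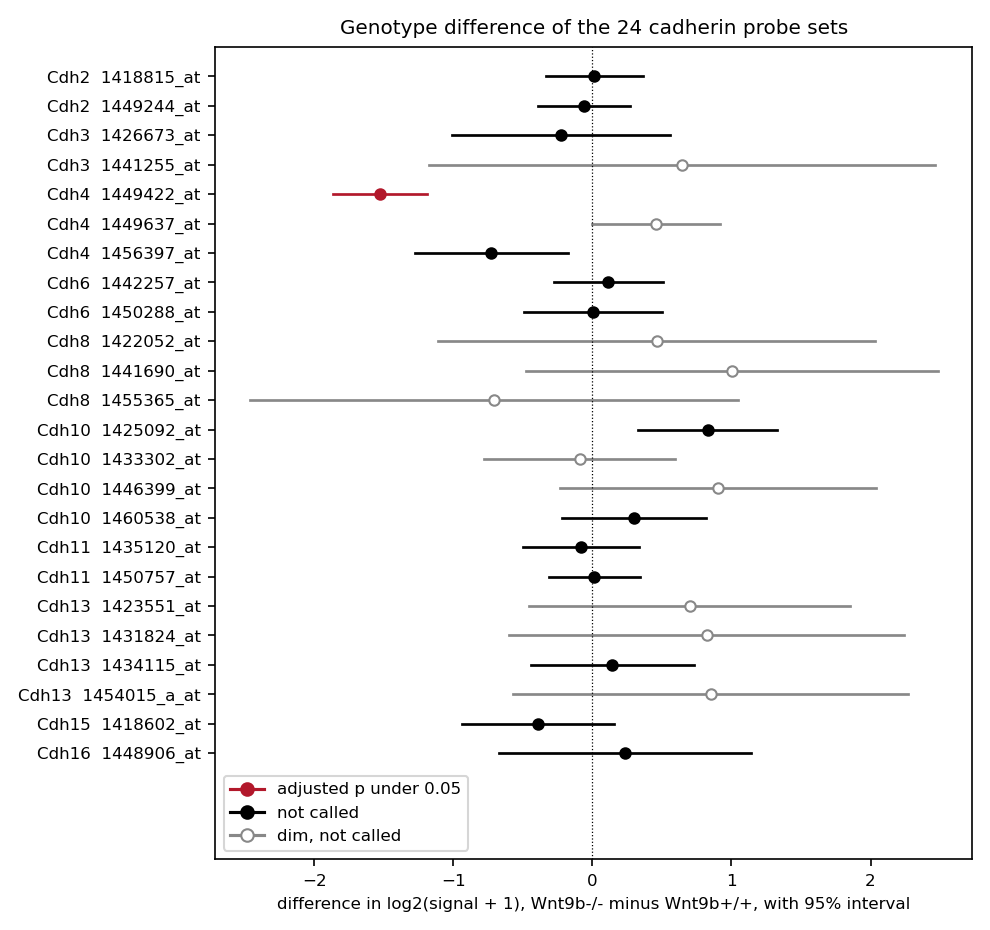
Difference in log2(signal + 1), mutant minus wild type, with its 95% interval for each of the 24 cadherin probe sets. The interval of Cdh4 1449422_at runs from -1.87 to -1.19, those of Cdh4 1456397_at and Cdh10 1425092_at also leave out 0, and the open grey points are probe sets with a mean signal under the 40th percentile.

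Cdh3, Cdh15 and Cdh16 had 1 probe set each that was not dim. Cdh16 is a cadherin of the ureteric bud and of differentiated tubules, and its signals on 1448906_at were 384, 415, 108, 111 and 201 in the mutant arrays, against 124, 187, 229, 186 and 172 in the wild-type arrays. Mutant replicates 1 and 2 were the highest arrays and mutant replicates 3 and 4 the lowest, so the mutant spread enclosed that of wild type. The difference was 0.23 (95% interval -0.67 to 1.14). Cdh3, the placental cadherin found in many embryonic epithelia, had signals of 93.8 to 317 in the mutant and 108 to 227 in wild type on 1426673_at, with a difference of -0.22 (95% interval -1.01 to 0.56). Cdh15, a cadherin of the skeletal muscle lineage, had 37.2 to 77.8 in the mutant and 58.3 to 92.7 in wild type, with a difference of -0.39 (95% interval -0.93 to 0.16). Skeletal muscle markers were higher in 5 of 6 genes, none called or with an unadjusted p under 0.05, where 45.1% of all genes were lower. Their summed signals were 917 to 1455 in the mutant and 860 to 1284 in wild type. The intervals of Cdh3 and Cdh15 reached down to -1.01 and -0.93 and that of Cdh16 up to 1.14, so these arrays do not settle whether differences of that size exist.

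**Figure D3:**
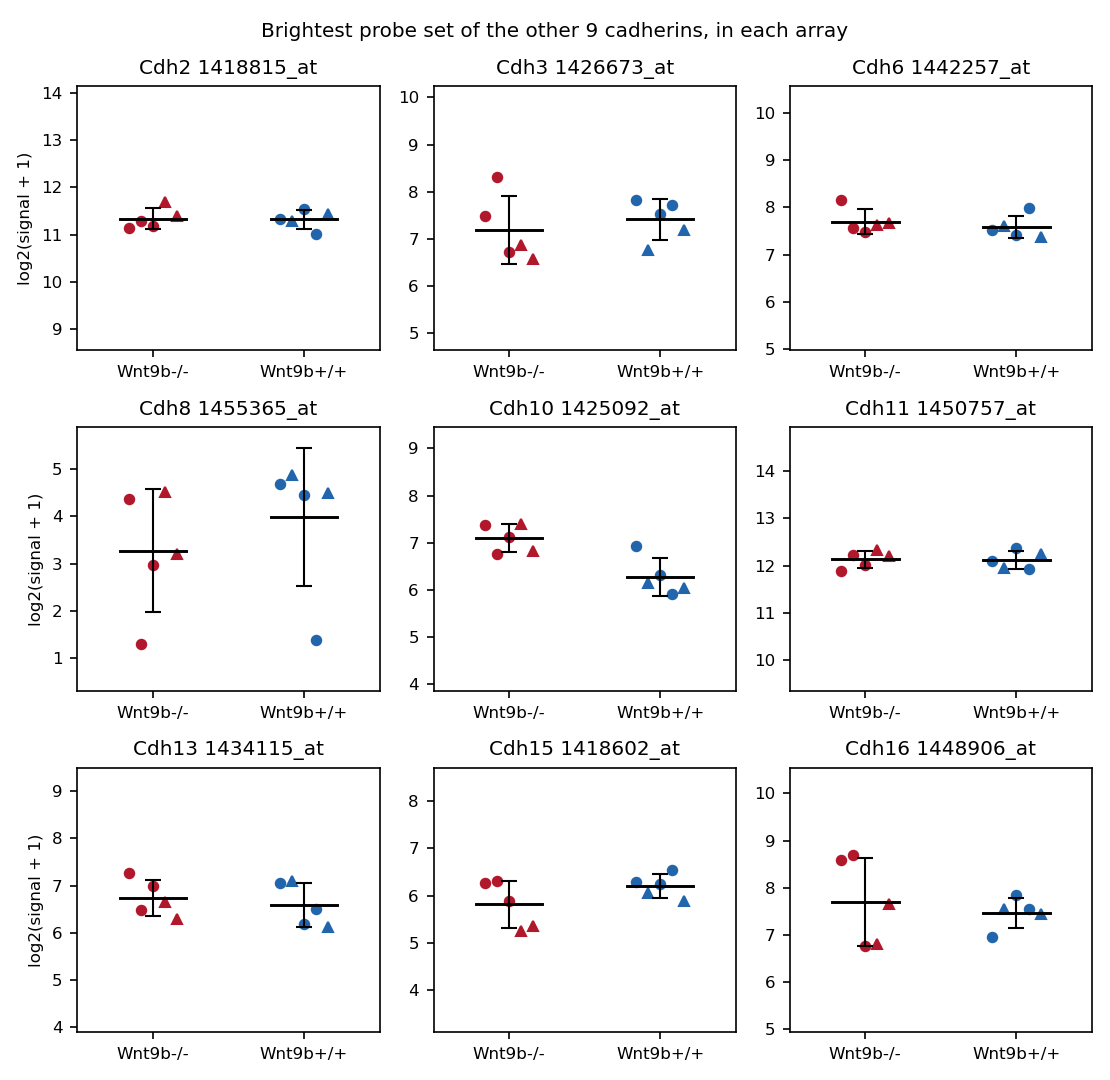
Log2(signal + 1) in each array for the brightest probe set of the 9 members other than Cdh4, with the mean and SD in black, triangles for the arrays with a high 18S control signal, and the same axis length in every panel. The groups overlap in all 9 panels, with Cdh10 the furthest apart and Cdh8 and Cdh16 widely spread.

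The spread of Cdh16 moved with that of ureteric bud markers. The mean log2 signal of 11 ureteric bud markers, among them Cdh1, Epcam and Krt8, was 8.06 and 8.03 in mutant replicates 1 and 2 and 6.91 in mutant replicate 4, the other arrays lying between 7.27 and 7.73. This relation was added after the values were seen, a choice that the adjustment over the 10 members does not cover. Over the 10 arrays Cdh16 correlated with this score at r = 0.82 (permutation p = 0.00374, adjusted p = 0.0374 over the 10 members), while Spearman's rho was 0.62 (permutation p = 0.0609, adjusted p = 0.185). Without mutant replicates 1 and 4, the arrays farthest from the median score, r was 0.73 over 8 arrays, and within the 6 arrays with low 18S signal it was 0.89. Mutant replicate 2, at 8.03, stayed in both subsets, and mutant replicate 1 stayed in the second. Neither value therefore shows whether the relation holds without both of these arrays. The 4 arrays with high 18S signal were too few for a value. With the genotype means removed r was 0.82. Of the other 9 members none passed after adjustment over the 10 relations, with Cdh15 at r = 0.67 (permutation p = 0.035, adjusted p = 0.169) and Cdh2 at r = -0.63 (permutation p = 0.0506, adjusted p = 0.169). Spearman's rho was 0.61 for Cdh15 (permutation p = 0.0666, adjusted p = 0.185) and -0.61 for Cdh2 (permutation p = 0.067, adjusted p = 0.185). With the genotype means removed Cdh15 was at r = 0.81 and Cdh2 at r = -0.63. Without mutant replicates 1 and 4 Cdh2 was at r = -0.19 and Cdh15 at r = 0.39, so both were weaker over the other 8 arrays. Without the 2 arrays the dim Cdh8 probe set was at r = -0.71, against -0.46 over all arrays (permutation p = 0.179, adjusted p = 0.358). Cdh4 1456397_at was at r = -0.22 (permutation p = 0.545, adjusted p = 0.662). Its r was -0.37 without mutant replicates 1 and 4, and -0.70 within the 6 arrays with low 18S signal, values that were not tested. The relation was taken on the brightest probe set of each member, so it was not computed for Cdh4 1449422_at. The ureteric bud list itself was split between the genotypes, with 6 of 11 genes lower and 5 higher, none called. Its sums were 1576 to 4298 in the mutant and 2101 to 3428 in wild type. The list and the score include Wnt9b, the gene that the mutants lack, which was among the lower genes at -0.24.

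**Figure D4:**
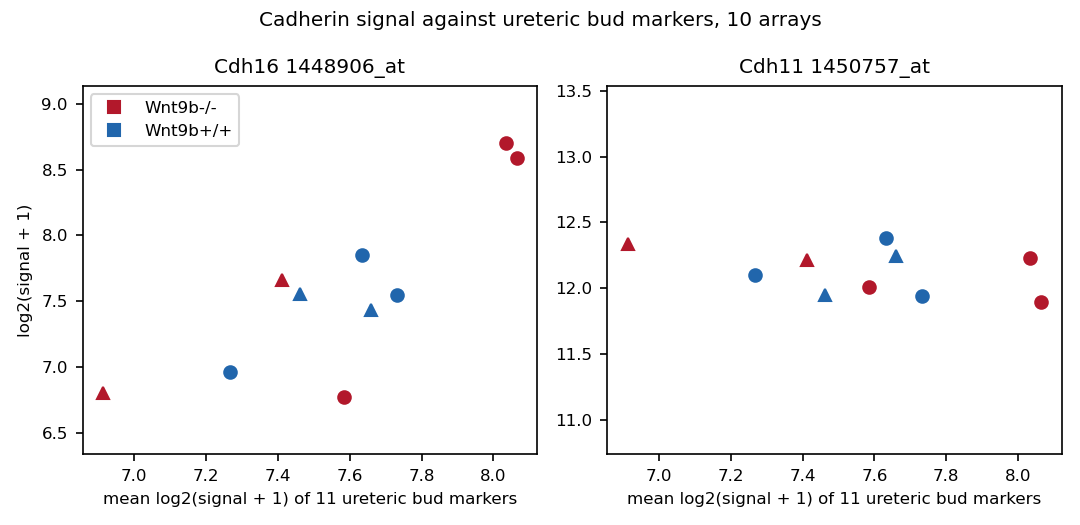
Log2(signal + 1) of Cdh16 (left) and Cdh11 (right) against the mean log2(signal + 1) of 11 ureteric bud markers in each of the 10 arrays, red for Wnt9b-/- and blue for Wnt9b+/+, with triangles for high 18S signal. Cdh16 is highest in the 2 mutant arrays at 8.03 and 8.06 on the horizontal axis, while Cdh11 stays within a narrow range over both panels' common axis length.

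Cdh13, the lipid-anchored cadherin known from vessels and nerves, and Cdh8, a type II cadherin of the nervous system, were measured weakly. Of the 4 Cdh13 probe sets 3 were dim, and the other, 1434115_at, had signals of 77.3 to 152 in the mutant and 68.6 to 135 in wild type, with a difference of 0.15 (95% interval -0.44 to 0.73). The dim ones gave 0.70 to 0.85, each with an interval of more than 2 log2 units that included 0. All 3 probe sets of Cdh8 were dim, with differences of -0.71, 0.46 and 1.00 whose intervals included 0. Their signals were 1.46 to 37.1 in the mutant and 0.58 to 28.6 in wild type, so these probe sets give neither a level nor a direction for Cdh8.

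Over the 24 probe sets, 10 were dim, 16 were higher and 8 lower in the mutant, and the median difference was 0.13, against 0.010 over all probe sets. Of the 24, 1 was called and 3 had an unadjusted p under 0.05, which is 12.5% against 4.51% of all probe sets. Of these, 2 were lower, both of Cdh4, and 1 was higher, of Cdh10, where 1.95% of all probe sets were lower and 2.56% higher at that threshold. The members were chosen with earlier results of these data known, so these shares are no test of the cadherins as a set. The groups did not overlap on 1 probe set, Cdh4 1449422_at, where 0.424% of all probe sets lay wholly lower and 0.464% wholly higher in the mutant. Of the 14 probe sets that were not dim, 9 had an interval that stayed within 1 log2 unit of 0 on either side.

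The genes around the cadherins were read from lists of adhesion partners, each gene by its brightest probe set, and none of them was called over all probe sets. Among 11 other measured cadherins 7 were higher and 4 lower, with a median of 0.26 against 0.025 over all 18193 genes. Cdh9, a type II cadherin, had the smallest p, with signals of 180 to 343 in the mutant and 122 to 225 in wild type (difference 0.77, SE 0.23, limma unadjusted p = 0.00809, adjusted p = 0.985). The epithelial cadherin Cdh1 had signals of 63.9 to 345 in the mutant and 95.3 to 273 in wild type, a difference of -0.061. All 11 catenins and tail partners were measured, 6 lower and 5 higher with a median of -0.0050, and none had an unadjusted p under 0.05. Jup, which encodes plakoglobin, had the smallest p among them, at -0.14, and Ctnnb1, which encodes beta-catenin, was at 0.022.

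The list of nectins and junction scaffolds had a median of -0.041, with 7 of 10 lower and Plekha7 at -0.63 (limma adjusted p = 1). That of proteases and trafficking factors had 7 measured genes with a median of 0.099, 6 of them higher and the other being Cdh1, which that list also held, and Mmp14, a membrane-bound matrix protease, at 0.28 (limma adjusted p = 1). Of 8 transcription factors known to repress Cdh1 or to promote loss of epithelial character, 7 were higher, with a median of 0.18. Twist1 had the smallest p among them, with signals of 502 to 689 in the mutant and 352 to 435 in wild type, without overlap (difference 0.57, SE 0.13, limma unadjusted p = 0.00155, adjusted p = 0.821). Of 16 large and desmosomal cadherins 10 were lower, with a median of -0.049. Pcdh19, a protocadherin, had the smallest p among them, with signals of 102 to 129 in the mutant and 133 to 189 in wild type, without overlap (difference -0.50, SE 0.15, limma unadjusted p = 0.00692, adjusted p = 0.956). Of all probe sets 0.464% lay wholly higher and 0.424% wholly lower in the mutant. Twist1 and Pcdh19 were named for their small p, so their lack of overlap adds no evidence.

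Wnt9b itself had signals of 41.8 to 106 in the mutant and 78.2 to 99.7 in wild type on its brighter probe set. On its other probe set the signals were 6.39 to 49.1 in the mutant and 19.9 to 49.5 in wild type, a difference of -0.78. Neither was called. The position of its probes relative to the deletion is not stated, so the labels cannot be checked by these values. Arrays correlated with each other at 0.915 to 0.954 on log2 signals, and array medians of log2 signal spanned 5.99 to 6.30. The high 18S control signal, 1975 to 2587 against 92.4 to 322, was found in mutant replicates 4 and 5 and wild-type replicates 2 and 5. The other markers lay as follows, none called. Stromal markers were higher in 5 of 6 genes (sums of 9890 to 14336 in the mutant and 10234 to 12300 in wild type), endothelial markers in 6 of 6 (2065 to 2785 and 2107 to 2753) and macrophage markers in 6 of 6 (1028 to 2099 and 1101 to 1589). An unadjusted limma p under 0.05 was found for 2 stromal genes, 1 macrophage gene and no endothelial gene, all higher. Of all genes 45.1% were lower, and 4.62% had such a p in either direction.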

How the data were processed

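RNA of 10 pools of mesenchyme was labelled with biotin and hybridised to Affymetrix GeneChip mouse genome arrays, per the labels' protocols. The authors deposited probe-set intensity values on a linear scale. How probes were summarised is not stated. The 2% trimmed mean of each array was 250.0, so the arrays had been scaled before deposit. No further normalization was applied, because array medians differed by less than 0.5 on the log2 scale. The 64 control probe sets were left out, log2(signal + 1) was taken, and all other probe sets were fitted with limma 3.58.1 in R 4.3.3 (lmFit, eBayes, two-sided, Benjamini-Hochberg), after the script was tested on simulated data. Replicate numbers only name arrays. Each array had its own RNA pool, per the labels' protocols, and the 5 arrays a group limit the precision.

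Members and lists were chosen with earlier results of these data known. Genes named are all members, any called gene of a list or else the one with the smallest p, the 5 nearest to Cdh4, and Wnt9b. Cdh1, Ctnnb1, Epcam, Krt8, Ccnd1, the ureteric bud relation and the genes nearest to 1449422_at were added after the values were seen. Alternatives were quantile normalization, median centring, a pseudocount of 16, leaving out the dimmest 40%, trend with robust moderation (statmod 1.5.0), array weights, 1 probe set or the mean per gene, blocks for title wording and 18S signal, subsets of arrays, and leaving out each array.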

Additional observations from a re-analysis of the deposited data

Results flagged for a closer look

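For the 24 probe sets, the distance from the most extreme of the 5 arrays of a genotype to its neighbour was set against the range of the 5, in 48 groups of values, and 2 stood out. Chance marks about 1 group in 20. On Cdh6 1442257_at, mutant replicate 1 had a log2 signal of 8.16, with the other mutant arrays at 7.48 to 7.67. On the dim Cdh8 1455365_at, wild-type replicate 4 had a log2 signal of 1.38, with the rest of the wild type at 4.45 to 4.89.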

How the results depend on the processing

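Cdh4 1449422_at was lower in the mutant under every alternative run, and stayed called with median centring, a pseudocount of 16, the dimmest 40% left out, trend with robust moderation and array weights (limma adjusted p = 0.00731 to 0.0444). It was not called with quantile normalization (-1.54, adjusted p = 0.0536), with a replicate block for titles that share wording (-1.53, adjusted p = 0.289), with the 18S block (-1.53, adjusted p = 0.0646), within the high-18S arrays (-1.63, adjusted p = 0.514) or the low-18S arrays (-1.46, adjusted p = 0.439), or without mutant replicate 2 and wild-type replicate 3, which had the brightest hybridisation controls (-1.61, adjusted p = 0.071). The cause was not tested, except that the subsets hold fewer arrays. The number of probe sets called was 2, against 3 with median centring and with a pseudocount of 16, and 1 with quantile normalization, with the brightest probe set of each gene and without the 2 hybridisation-control arrays. It was 0 by limma with either block and within either 18S set, where 1924 to 2508 probe sets had an unadjusted p under 0.05. Averaging the probe sets of a gene also left 0 called by limma, where 1009 genes had an unadjusted p under 0.05. Leaving out each array gave 0 to 1 called probe sets, the 1 without wild-type replicate 3, and -1.61 to -1.46 for Cdh4 1449422_at.

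The labels do not pair the arrays. Deviations from the genotype means correlated at 0.084 to 0.18 within the 3 pairs whose titles share wording. The Cdh4 probe sets differed by -0.79 within the high-18S arrays (exact permutation p = 0.333) and -0.81 within the low-18S arrays (exact permutation p = 0.1), each the smallest p those arrays allow.

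Cdh4 1456397_at was lower and uncalled under every alternative. None of the other 22 member probe sets was called under any alternative. The sign changed in 39 of 470 values, which reached at most 0.27 in size. Cdh6 1450288_at was at -0.0072 with quantile normalization, -0.016 with median centring, -0.012 with array weights and -0.14 within the high-18S arrays. Median centring put Cdh2 1418815_at at -0.0057 and Cdh11 1450757_at at -0.0072. Cdh10 1433302_at was at 0.0014 with array weights and 0.089 without the 2 hybridisation-control arrays. Averaging the probe sets of a gene gave -0.023 for Cdh2, 0.21 for Cdh3, 0.25 for Cdh8 and -0.035 for Cdh11. Within the high-18S arrays Cdh2 1449244_at was at 0.19, Cdh11 1435120_at at 0.19, Cdh13 1434115_at at -0.13 and Cdh16 at -0.27. Within the low-18S arrays Cdh2 1418815_at was at -0.091, Cdh3 1441255_at at -0.011, Cdh8 1422052_at at -0.20, Cdh10 1460538_at at -0.076 and Cdh11 1450757_at at -0.096. Leaving out each array gave -0.073 to 0.071 for Cdh2 1418815_at, -0.14 to 0.0094 for Cdh2 1449244_at, -0.14 to 0.090 for Cdh6 1450288_at, -0.28 to 0.045 for Cdh10 1433302_at, -0.18 to 0.019 for Cdh11 1435120_at, -0.036 to 0.079 for Cdh11 1450757_at and -0.014 to 0.47 for Cdh16.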
